A study of Mus musculus with 15 samples.

Results

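The genes described here are 45 genes of the vessel wall and of vessel growth, measured in whole-heart RNA from mice given methamphetamine (meth) for 5 months. They were chosen by symbol: every non-control probe whose transcript accession maps to a listed symbol was taken, which gave 64 probes for all 45 genes, out of 18535 named genes on the array. Of the 64 probes, 62 were tested, and every one of the 45 genes had at least 1 tested probe. A gene with several probes was read from its brightest tested probe, and 15 genes had more than 1. In 43 of the 45 genes that probe was well above background on all 15 arrays, so the vessel genes as a group were readily seen in these hearts. The exceptions were Sele, on 4 arrays, and Hif1a, on 14.

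All mice were C57BL/6, 8 to 10 weeks old at the start, housed under a cycle of light and dark, and killed with CO2 at the end. The meth mice received weekly intraperitoneal injections of methamphetamine hydrochloride that rose by 2 mg/kg each week over 20 weeks to a final 40 mg/kg, and the control mice received phosphate-buffered saline (PBS) on the same schedule. Each array held the heart RNA of 1 mouse: 4 male meth, 4 male PBS, 4 female meth and 3 female PBS. The sample titles put the males in 2 trials, with 2 meth and 2 PBS mice in each, and the females in 1. A second label puts female meth replicates 3 and 4 and female PBS replicate 3 in the second trial instead.

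Endothelial cells line every vessel of the heart and hold together through junction proteins such as VE-cadherin and claudin-5. Vessel growth is driven by ligands of the vascular endothelial growth factor (VEGF) family, which cardiomyocytes and other cells release and which bind receptor tyrosine kinases on the endothelium. Angiopoietins acting on TIE2, Notch signals between neighbouring cells, and apelin shape and steady the new vessels. Low oxygen raises many of these ligands through hypoxia-inducible factors, and inflammatory signals make the endothelium display adhesion molecules that catch leukocytes.

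Vegfa and Cldn5 were lower in meth males, and Figf (current symbol Vegfd) was higher over both sexes. The hypoxia target Egln3 did not pass the adjusted test in any comparison, and its log2 fold changes had opposite signs in the sexes. The start regions of these 4 genes are printed as examples. Each is the 250 bases upstream of an annotated start in RefSeq's mouse build GRCm38.p6, written 5′ to 3′ on the gene's strand, from chr17:46032378-46032627 (minus strand), chr16:18776597-18776846 (plus), chrX:164373272-164373521 (plus) and chr12:54203875-54204124 (minus). Capitals mark matches on either strand to the hypoxia element core ACGTG or to AGGAAG, a longer form of the ETS motif. The shorter ETS core GGAA was not searched for.
Vegfa: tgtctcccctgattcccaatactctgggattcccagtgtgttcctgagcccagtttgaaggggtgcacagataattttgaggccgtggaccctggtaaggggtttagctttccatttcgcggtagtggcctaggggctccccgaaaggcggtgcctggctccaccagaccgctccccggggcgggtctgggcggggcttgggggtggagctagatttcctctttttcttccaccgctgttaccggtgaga
Cldn5: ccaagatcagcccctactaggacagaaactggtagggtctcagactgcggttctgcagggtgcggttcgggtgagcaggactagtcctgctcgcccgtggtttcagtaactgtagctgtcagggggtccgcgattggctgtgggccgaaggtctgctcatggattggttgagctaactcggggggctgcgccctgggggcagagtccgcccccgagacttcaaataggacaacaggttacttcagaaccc
Figf: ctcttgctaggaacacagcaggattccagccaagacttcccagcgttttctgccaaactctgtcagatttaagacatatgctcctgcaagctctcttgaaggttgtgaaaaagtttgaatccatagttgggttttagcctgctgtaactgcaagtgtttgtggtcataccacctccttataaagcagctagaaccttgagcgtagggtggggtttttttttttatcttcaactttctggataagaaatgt
Egln3: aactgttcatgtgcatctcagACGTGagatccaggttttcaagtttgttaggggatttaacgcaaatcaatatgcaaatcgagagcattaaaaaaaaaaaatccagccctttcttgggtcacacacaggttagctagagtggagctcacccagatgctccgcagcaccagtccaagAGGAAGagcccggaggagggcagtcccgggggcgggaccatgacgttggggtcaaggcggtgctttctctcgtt
In Egln3 the hypoxia core began 229 bases upstream of the start and AGGAAG 74 bases upstream. The other 3 windows held neither of these runs of letters. Pgf and Adm, like Egln3, did not overlap in females without passing. Their windows held neither run and are not printed. RefSeq windows were matched for 29 of the 45 genes. The letters ACGTG, or CACGT on the other strand, were in 4 of those 29 (Egln3, Hif1a, Klf4 and Vegfa). Some genes had more than 1 window. By window the share was 4 of 33 (12.1%), against 16.6% of all 32851 windows of this length. The Vegfa match lay at a second annotated start, 7.21 kb downstream of the printed one and so inside the gene as read from there, and without that window 3 of the 29 held the letters. The E-box CACGTG, which contains ACGTG, was in 2 genes (Hif1a and Klf4), 6.06% of the 33 windows, and in 6.02% of all windows. AGGAAG, or CTTCCT on the other strand, was in 12 of the 29 genes, 36.4% of the 33 windows, and in 29.5% of all windows. A match is a run of letters and was not tested as a binding site. Sequence beyond these 250 bases was not searched, so a window without a match does not show that the gene lacks the element.

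All levels below are normalized log2 signals, the log2 of the scanner's processed intensity minus the 75th percentile of its own array, and differences between groups are log2 fold changes from 1 limma fit. A gene passed where its Benjamini-Hochberg adjusted p over all 28358 probes tested was under 0.05. The 15 arrays lay on 4 slides, and each slide held meth and PBS mice. The 3 female arrays of slide 4 stood apart: their 75th percentile signal was 438 to 589 against 306.85 to 402.7 on the other 12 arrays, and 67.6 to 71.4% of their probes were well above background against 61.3 to 65.2%. The processed log2 signal of a spike-in control was 15.13 to 15.47 on slide 4, against 17.86 to 18.15 on the other 12 arrays. Calls that are lost without the 3 arrays of slide 4 are given below.

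In meth males, Vegfa, the main growth factor of the family, was 1.33-fold lower than in PBS males, and Cldn5, the tight junction protein claudin-5, was 1.35-fold lower. These 2 of the 45 genes passed (4.44%), against 1.11% of all probes tested, and both were lower. In female hearts none of the 45 passed, against 0.758% of all probes, and 11 had an unadjusted p under 0.05. Over both sexes together 3 of the 45 passed (6.67%, against 2.65% of all probes): Vcam1 and Figf rose and Cldn5 fell. The group as a whole hardly moved. Its median log2 fold change was 0.02 in males, where that of all probes was -0.03, and 0.02 in females, where it was 0.00. The size of the change was under 0.2 in 35 of the 45 genes in males and in 28 in females.

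Vegfa read 3.83, 3.72, 3.91 and 4.05 on the 4 male meth arrays and 4.26, 4.35, 4.31 and 4.23 on the 4 male PBS arrays. Every meth male lay below every PBS male. In females the meth arrays read 4.22, 4.35, 4.47 and 4.25 and the PBS arrays 4.29, 4.32 and 4.35, and the groups overlapped. The male log2 fold change was -0.41 (SE 0.08, adjusted p = 0.0261) and the female one 0.00 (SE 0.08, adjusted p = 0.995). The exact permutation test within males gave p = 0.0286, two-sided, the smallest it can give with 4 against 4. The male response was -0.53 in trial 1 and -0.29 in trial 2, and it was -0.43, -0.63 and -0.29 within slides 1, 2 and 3. With the replicate number as a block, the male adjusted p was 0.0866. Leaving out any 1 male array other than those of trial 2 replicate 2 took it to between 0.0646 and 0.0988, at log2 fold changes of -0.42 to -0.37.

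Vegfa has 4 probes, and on all 4 the male meth arrays lay below the male PBS arrays. The other 3 probes gave male log2 fold changes of -0.36 (adjusted p = 0.152), -0.50 (adjusted p = 0.00197) and -0.47 (adjusted p = 0.083). On the probe with -0.50, A_52_P249424, the male meth arrays read 1.03, 1.02, 0.92 and 0.93 and the male PBS arrays 1.43, 1.55, 1.42 and 1.50. The female meth arrays read 1.56, 1.77, 1.71 and 1.69 there, on both sides of the PBS values of 1.60, 1.61 and 1.65. On this probe alone among the 62, the difference between the male and female responses passed, at -0.56 (SE 0.09, adjusted p = 0.0333). Over both sexes A_52_P249424 also passed, at -0.22 (adjusted p = 0.0255; 0.0598 with the replicate block and 0.0721 without slide 4). The difference between the sexes did not pass on the brightest probe, at -0.41 (SE 0.11, adjusted p = 0.354). The replicate block left the male response past the threshold on A_52_P249424 (adjusted p = 0.0267; 0.0827 with normexp background correction and 0.162 with trial 1 arrays alone) and the difference not (adjusted p = 0.151). No single array ended the male call on this probe, while leaving out any array but female meth replicate 1 took the difference to adjusted p-values of 0.0531 to 0.132, and leaving out slide 4 to 0.174.

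**Figure D1:**
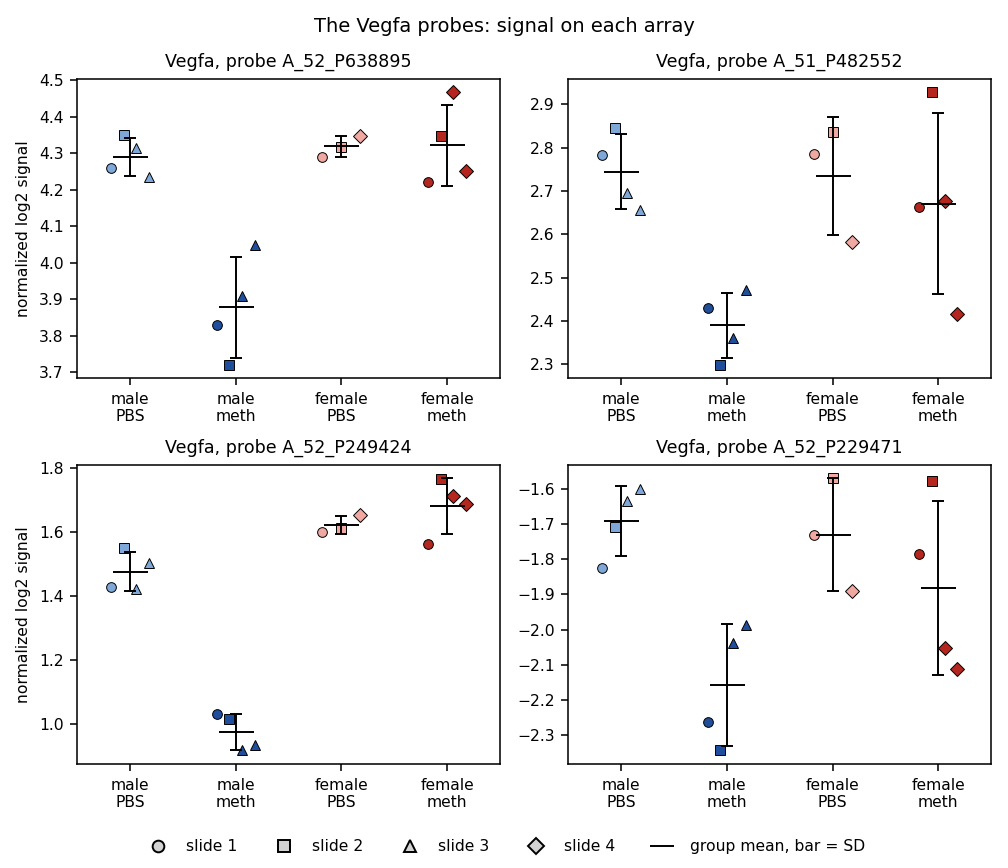
Normalized log2 signal of the 4 Vegfa probes on each of the 15 arrays, by sex and treatment, with a point per array and bars for the group mean and SD. On every probe the 4 male meth arrays lie below the 4 male PBS arrays, while the female groups overlap on the brightest probe, with means of 4.32 in both.

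Cldn5 seals the contacts between endothelial cells. It read 2.02, 1.79, 1.73 and 1.77 in meth males and 2.24, 2.41, 2.19 and 2.18 in PBS males, without overlap. In meth females it read 2.17, 2.24, 2.39 and 2.22, among the PBS values of 2.19, 2.41 and 2.54. The log2 fold change was -0.43 in males (SE 0.09, adjusted p = 0.0376), -0.12 in females (SE 0.09, adjusted p = 0.721) and -0.28 over both (SE 0.06, adjusted p = 0.0425). The difference between the sexes was -0.30 (SE 0.13, adjusted p = 0.562) and did not pass. Within slides the male difference was -0.22, -0.62 and -0.44. With the replicate block the adjusted p was 0.0683 in males and 0.0661 over both sexes, and without slide 4 it was 0.0319 and 0.0841. Both calls also ended without single arrays: in males without female meth replicate 4, female PBS replicate 2 or any male array but meth trial 1 replicate 1 (adjusted p of 0.0507 to 0.129), and over both sexes without any array but male meth trial 1 replicate 1, female meth replicate 3 and female PBS replicate 1 (0.0596 to 0.105). The other 9 junction and surface genes (Pecam1, Cdh5, Emcn, Esam, Icam2, Robo4, Plvap, Eng and Gpihbp1) had male log2 fold changes of -0.06 to 0.19 and female ones of -0.14 to 0.24, and none passed.

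Vcam1 is an adhesion molecule that cytokines induce on endothelium and that binds leukocyte integrins. It read 2.03, 1.94, 2.19 and 2.00 in meth males and 1.57, 1.66, 1.38 and 1.36 in PBS males. In females it read 2.76, 2.14, 2.14 and 2.75 with meth and 1.88, 2.11 and 1.99 with PBS. Meth and PBS did not overlap in either sex. The log2 fold change was 0.55 in males (SE 0.15, adjusted p = 0.125), 0.46 in females (SE 0.16, adjusted p = 0.273) and 0.50 over both, a 1.42-fold rise (SE 0.11, adjusted p = 0.034). With the replicate block the last adjusted p was 0.102, and without slide 4 it was 0.079. It was 0.0528 to 0.0914 without any 1 array other than both male meth arrays of trial 1, male PBS trial 1 replicate 2 and female meth replicates 2 and 3. A second, dimmer Vcam1 probe gave 0.35 in males and 0.32 in females, with an adjusted p of 0.198 over both.

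The other adhesion genes did not pass. Selp, the P-selectin of endothelium and platelets, had log2 fold changes of 0.36 in males and 0.62 in females (over both, 0.49, adjusted p = 0.221). Icam1, a ligand of leukocyte integrins, had 0.11 and 0.23. Sele, or E-selectin, was well above background on 1 male meth array and on none of the male PBS arrays, so no fold is given. Among the coagulation genes, Vwf, the platelet-binding von Willebrand factor, had 0.30 and 0.49 (over both, 0.39, adjusted p = 0.115), and Thbd, thrombomodulin, had 0.02 and 0.13.

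Figf encodes VEGF-D, a ligand known for lymphatic vessel growth. It read 0.27, 0.41, 0.36 and 0.15 in meth males and 0.05, -0.08, -0.20 and -0.17 in PBS males, without overlap. In females the meth arrays read 0.07, -0.13, 0.14 and 0.25 and the PBS arrays -0.32, -0.20 and 0.01, with some overlap. The log2 fold change was 0.39 in males (SE 0.10, adjusted p = 0.0918), 0.25 in females (SE 0.11, adjusted p = 0.387) and 0.32 over both, a 1.25-fold rise (SE 0.07, adjusted p = 0.0368). With the replicate block the last adjusted p was 0.0693, and without slide 4 it was 0.0534. It was 0.0519 to 0.0991 without any 1 array other than male meth trial 1 replicate 1, female meth replicate 2 and female PBS replicate 3.

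**Figure D2:**
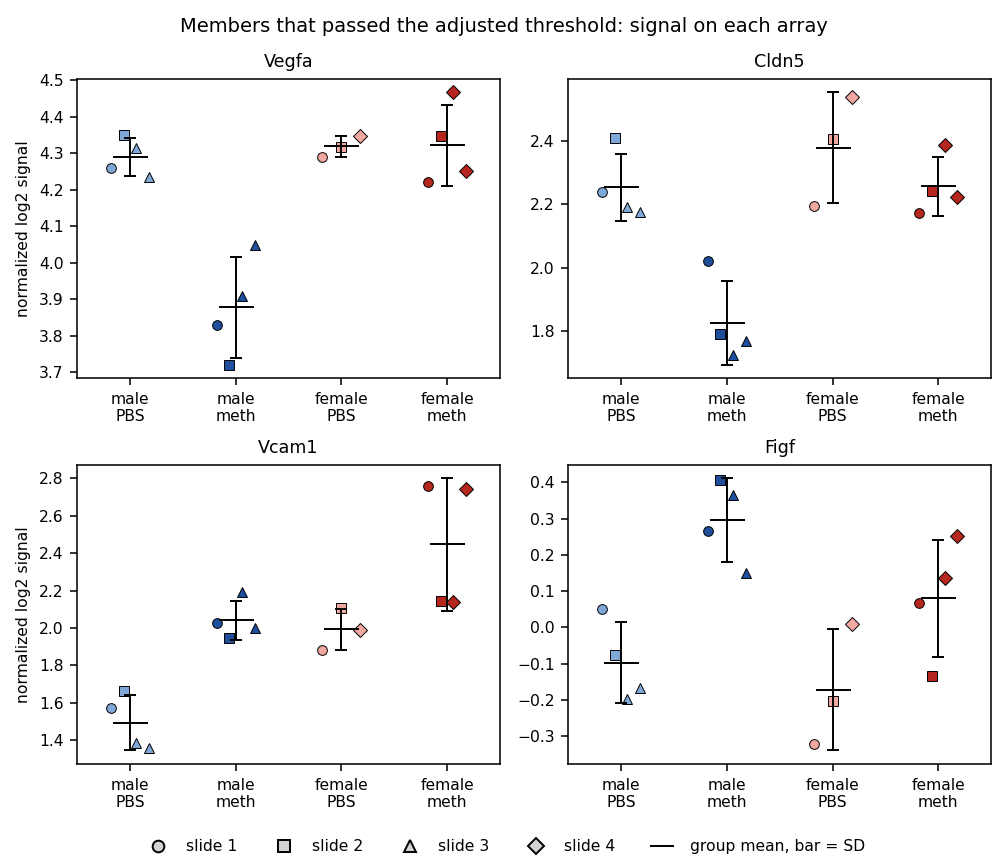
Normalized log2 signal of Vegfa, Cldn5, Vcam1 and Figf on each array, with a point per array and bars for the mean and SD of the 4 groups (n = 4, 4, 4 and 3). In males Vegfa and Cldn5 lie lower with meth and Vcam1 and Figf higher, each without overlap.

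Pgf, placental growth factor, binds the VEGF receptor FLT1. It read -1.30, -1.45, -1.28 and -1.03 in meth females and -1.95, -1.98 and -1.67 in PBS females. The female groups did not overlap, at a log2 fold change of 0.60 (SE 0.14, adjusted p = 0.0685, exact permutation p = 0.0286, the smallest 4 against 3 can give). In males the groups overlapped: -1.64, -1.73, -1.55 and -1.42 with meth and -1.45, -1.46, -1.75 and -1.90 with PBS. The difference between the sexes, -0.55 (SE 0.19, adjusted p = 0.464), did not pass. The male response was -0.23 in trial 1 and 0.34 in trial 2. Of the remaining ligands, Vegfb had log2 fold changes of -0.17 in males and 0.02 in females, and the lymphatic ligand Vegfc had -0.03 and -0.12.

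None of the VEGF receptors and co-receptors passed. Kdr, or VEGFR2, the main signalling receptor of VEGF-A, stood at -0.34 with meth in males (adjusted p = 0.227), at -0.28 in females (adjusted p = 0.439) and at -0.31 over both (SE 0.09, adjusted p = 0.0821). Its male values were -0.12 in trial 1 and -0.56 in trial 2. Flt1, which also binds VEGF-A, had -0.04 and -0.01, and Flt4, the receptor of VEGF-C and VEGF-D, had 0.10 and 0.03. The co-receptors Nrp1 and Nrp2 had 0.17 and 0.05 in males and -0.13 and -0.15 in females.

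In the angiopoietin axis, Angpt1, the agonist of TIE2, read -1.64, -1.89, -1.95 and -1.30 in meth females and -1.98, -2.26 and -1.98 in PBS females. These did not overlap, at 0.38 (SE 0.15, adjusted p = 0.355), and a second Angpt1 probe gave 0.14. The male log2 fold change was -0.03. Angpt2, which competes with Angpt1 for the receptor, had 0.02 in both sexes, and the receptor genes Tek and Tie1 had values of -0.15 to 0.10. Among the Notch genes Dll4, Notch1 and Notch4, values ran from -0.16 to 0.19.

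Aplnr, the apelin receptor, read -0.26, -0.55, -0.16 and -0.21 in meth females and 0.08, 0.39 and 0.24 in PBS females, without overlap, a log2 fold change of -0.53 (SE 0.15, adjusted p = 0.134). A second probe gave -0.38. In males it read -0.03, -0.46, 0.37 and 0.12 with meth and -0.19, -0.08, -0.17 and -0.08 with PBS. The meth males were the more scattered group, and the difference between the sexes, 0.66 (SE 0.20, adjusted p = 0.405), did not pass. The ligand Apln had -0.10 in males and -0.15 in females. Within slides, a second Apln probe gave 0.06, -0.60 and -0.12 in males and -0.08, -0.30 and 0.02 in females. Another gave 0.07, -1.03 and -0.15 in males and -0.33, -0.51 and -0.41 in females.

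Among the hypoxia genes, Egln3, a prolyl hydroxylase that marks HIF proteins for destruction and is itself induced by HIF, read 1.76, 1.81, 1.91 and 1.82 in meth females and 1.51, 1.45 and 1.62 in PBS females. In males it read 1.52, 1.58, 1.32 and 1.23 with meth and 1.72, 1.62, 1.53 and 1.41 with PBS. The female groups did not overlap and the male groups did. The log2 fold change was 0.30 in females (SE 0.07, adjusted p = 0.0793) and -0.16 in males (SE 0.07, adjusted p = 0.326), a difference of -0.46 (SE 0.10, adjusted p = 0.145). Adm, the vasodilator peptide adrenomedullin, read 0.65, 0.44, 0.43 and 0.66 in meth females and 0.29, 0.24 and 0.38 in PBS females, at 0.25 (SE 0.11, adjusted p = 0.402). In males Adm overlapped, at 0.01.

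Epas1, which encodes HIF-2 alpha, had -0.03 in males and 0.14 in females, where its groups did not overlap. A second Epas1 probe gave within-slide differences of 0.20, 0.42 and 0.05 in males and -0.24, 0.12 and 0.15 in females. Hif1a read 0.73 to 1.14 on 14 arrays and -7.10 on female meth replicate 1, where it was not well above background. Its female log2 fold change was -1.92 (SE 1.52, adjusted p = 0.735) with that array and 0.09 without it.

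**Figure D3:**
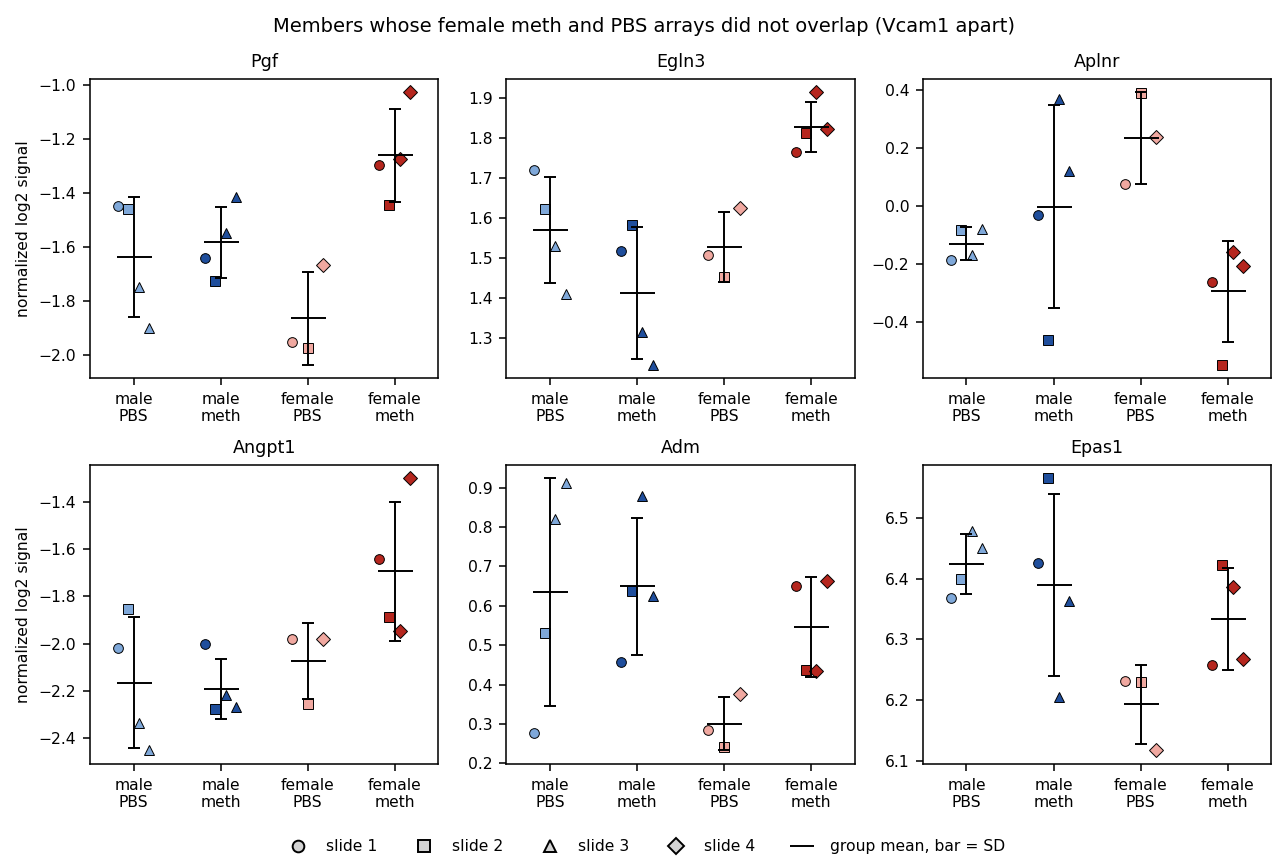
Normalized log2 signal of Pgf, Egln3, Aplnr, Angpt1, Adm and Epas1 on each array by sex and treatment, with the mean and SD. The female meth and PBS arrays do not overlap for any of the 6, and the male ones overlap for all; none passed the adjusted test.

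Among the endothelial transcription factors (Erg, Fli1, Sox17, Sox18, Klf2 and Klf4) no brightest probe passed. Sox17, a factor of arterial endothelium, read 0.71, 0.81, 0.67 and 0.59 in meth males and 0.42, 0.42, 0.35 and 0.39 in PBS males, without overlap, at 0.30 (SE 0.11, adjusted p = 0.269). In females it overlapped, with 0.84, 0.73, 0.41 and 0.42 against 0.47, 0.65 and 0.23. Over both sexes it had 0.22 (adjusted p = 0.188), and a dimmer Sox17 probe passed there, at 0.26 (adjusted p = 0.0375; 0.0702 with the replicate block, and 0.0605 to 0.102 without any 1 array other than male meth trial 2 replicate 2, female meth replicate 2 and female PBS replicate 3). Klf4, a factor induced by flow and stress, had -0.19 in males and 0.33 in females, a difference of -0.52 (SE 0.16, adjusted p = 0.403). Erg, Fli1, Sox18 and Klf2 had male values of -0.22 to -0.03 and female values of -0.22 to 0.09.

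Across the 45 genes, meth and PBS arrays did not overlap for 5 genes in males (11.1%, against 9.86% of all probes) and for 7 in females (15.6%, against 9.07%), so the male share lay near the background. The female genes with an unadjusted p under 0.05 were 9 higher and 2 lower (20% and 4.44%), where 3.43% and 7.60% of all probes were. In males they were 3 higher and 4 lower (6.67% and 8.89%, against 6.11% and 6.73%). For the mean of both sexes they were 7 and 3 (15.6% and 6.67%, against 5.96% and 9.38%). For the difference between the sexes none of the 45 brightest probes passed, against 0.138% of all probes, and 1 higher and 5 lower had an unadjusted p under 0.05 (2.22% and 11.1%, against 4.73% and 3.94%). The male and female log2 fold changes had the same sign in 27 genes and opposite signs in 18.

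**Figure D4:**
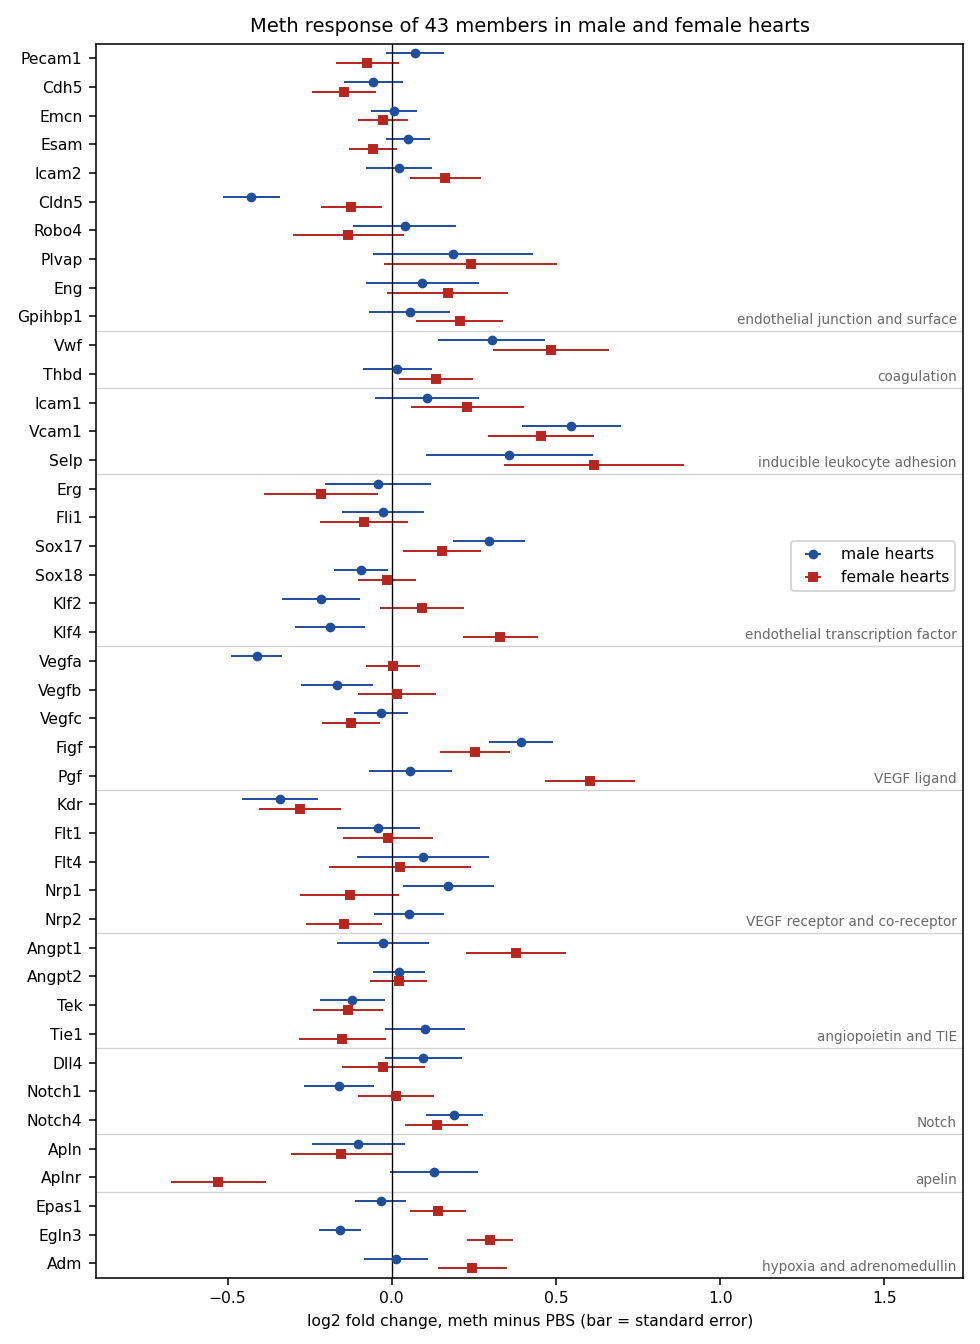
Log2 fold change, meth minus PBS, with its SE, of 43 genes in males and in females; Hif1a is left out because of its outlying array and Sele because it was dim. Most points lie within 0.2 of 0, with Cldn5 and Vegfa past the adjusted test in males, at -0.43 and -0.41; their differences between the sexes, -0.30 and -0.41, did not pass.

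For a difference in response between the male trials, no gene passed (0 of 45 and 0% of all probes past the adjusted threshold in limma). An unadjusted p under 0.05 was reached by 1 of 45 (2.22%), Pgf at 0.57, and by 1294 of all 28358 probes.

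The male and female PBS hearts were compared as the background to the sex comparison. No gene of the 45 passed, against 0.480% of all probes, but 34 of the 45 had lower levels in PBS males and 11 higher. Of all probes, 54.9% were lower. Without Sele, which was not well above background there, 33 of 44 genes were lower. The median log2 difference, male minus female, was -0.18, where that of all probes was -0.03. An unadjusted p under 0.05 was reached by 11 lower and 1 higher (24.4% and 2.22%, against 8.80% and 6.41% of all probes). The male PBS arrays all lay below the female ones for 13 genes (28.9%, against 7.89% of all probes) and all above for Epas1 alone (2.22%, against 6.83%). When each array was set to its own median instead, the median of all probes moved from -0.03 to 0.09, and 35.4% of them were lower. Then 27 of the 45 were lower, with a median of -0.05. With quantile normalization the median of the 45 was -0.24, and 36 were lower, where all probes had 0.002 and 49.5%. Without female PBS replicate 2 the median of the 45 was -0.11, and 32 were lower, where all probes had -0.03 and 55.4%.

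Angpt2 was the nearest to passing, at -0.47 (SE 0.10, adjusted p = 0.0562). It read -0.49, -0.48, -0.31 and -0.19 in PBS males and 0.03, 0.05 and 0.01 in PBS females. Flt4 had -0.71 (SE 0.24, adjusted p = 0.203), Aplnr -0.49 (adjusted p = 0.193), Vcam1 -0.46 (adjusted p = 0.251) and Notch4 -0.41 (adjusted p = 0.11). Slides 1 and 2 each held 1 PBS male and 1 PBS female. There 28 of the 45 genes (62.2%) were lower in the male on both slides, against 34.6% of all probes. For Angpt2 these within-slide differences were -0.52 and -0.53. In bulk tissue, fewer cells of a type and less RNA per cell cannot be told apart.

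**Figure D5:**
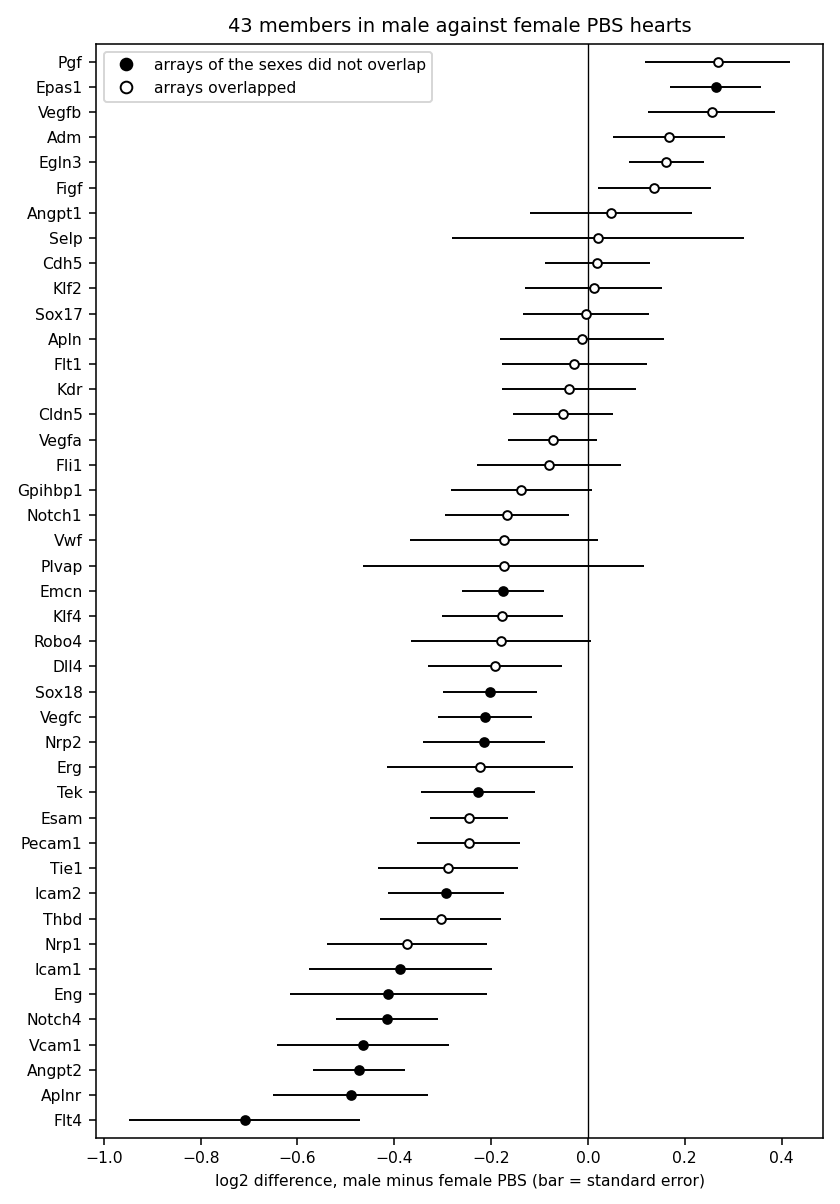
Log2 difference, male minus female PBS hearts, with its SE, of 43 genes, Hif1a and the dim Sele left out. Most genes lie below 0, Flt4 lies lowest at -0.71, and none passed the adjusted test.

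Marker lists of other cells were read beside these results. A list of 8 endothelial markers, all well above background on every array, had mean levels of 1.49 to 1.63 in meth males, 1.49 to 1.75 in PBS males, 1.53 to 1.70 in meth females and 1.70 to 1.80 in PBS females. The 10 cardiomyocyte genes had mean levels of 8.22 to 8.46 in PBS males and 7.93 to 8.17 in PBS females, and 9 of the 10 were higher in the males. The fibroblast genes had 2.77 to 2.98 and 3.02 to 3.21. Both lists were thus without overlap between the PBS sexes. The 11 capillary endothelium genes overlapped there, at means of 3.59 in males and 3.62 in females (exact permutation p = 0.686). So did the pericyte, leukocyte, platelet and red blood cell lists. The lymphatic, endocardial, airway and alveolar lists were lower in PBS males, without overlap. Of these, only 2 of 6 airway genes and 1 of 5 alveolar genes were well above background on every array. Pdpn, on the lymphatic list, passed between the PBS sexes, at -1.15 (adjusted p = 0.0855 without slide 4). It did not pass in 9 of 27 alternatives, and its value ran from -1.31 to -0.07 over them. Capillary Aqp7 passed for meth over both sexes, at -0.39 (adjusted p = 0.169 without slide 4), but not in 23 of 29 alternatives. The part of these lists in the sex difference was not tested. None of the leukocyte, platelet or pericyte markers passed in either sex.

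RNA of airway epithelium moved with meth in the males. All 6 airway genes passed there, with mean levels of 0.36 to 2.51 in meth males against -5.30 to -4.88 in PBS males, -3.62 to -2.29 in meth females and -4.01 to -3.51 in PBS females; Foxj1, Bpifa1 and Cdh1 were not well above background on any PBS male array. The alveolar list ran from -3.75 to -2.28 in meth males, -5.40 to -5.26 in PBS males, -4.69 to -3.74 in meth females and -3.57 to -2.70 in PBS females. Only 1 of its 5 genes was well above background on every array. Lung holds much endothelium, and the part of this RNA in the vessel gene results was not tested. Clock genes also moved: 7 of 10 passed in males and 3 in females, against 1.11% and 0.758% of all probes. The time of day of tissue collection was not given in the sources used here.

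Of 69 other genes of angiogenesis and hypoxia, 1 passed in males, none in females and 5 over both sexes. Of all probes, 1.11%, 0.758% and 2.65% passed in these comparisons. The counts among the 69 ran from 0 to 3, 0 to 2 and 0 to 6 over the alternatives tried. Pfkfb3, a glycolytic activator used by sprouting endothelium and induced by hypoxia, rose by 0.77 in males (SE 0.15, adjusted p = 0.034) and by 0.69 over both (adjusted p = 0.008). With the replicate block these adjusted p-values were 0.129 and 0.0652, and without slide 4 they were 0.0653 and 0.0554. No single array ended the call over both sexes, while the male one was lost (0.0528 to 0.125) without female PBS replicate 1 or any male array but those of trial 1 replicate 1.

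Over both sexes the Notch targets Heyl and Hes1 fell by 0.32 (adjusted p = 0.044) and by 0.27 (adjusted p = 0.022). The other genes of their list of 12 Notch pathway genes did not pass. The list as a whole did not fall: its mean levels were -0.68 with meth and -0.73 with PBS in males, and -0.66 and -0.65 in females. Meth and PBS arrays overlapped in both sexes. Heyl kept its call with the replicate block (0.0291) and without slide 4 (0.025) but lost it (0.064 to 0.118) without any 1 array other than female meth replicates 1 and 2 and female PBS replicate 3. Hes1 lost its call with the block (0.0643), without slide 4 (0.0774) and without male meth trial 1 replicate 2, male PBS trial 2 replicate 2 or female PBS replicate 1 (0.0516 to 0.0542), and with normexp background correction it stood at -0.14 (adjusted p = 0.776).

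Ramp2, a subunit of the adrenomedullin receptor, rose by 0.32 over both sexes (adjusted p = 0.037; 0.103 with the replicate block and 0.086 without slide 4). The hypoxia target Ankrd37 rose by 0.39 (adjusted p = 0.040; 0.14 with the block and 0.106 without slide 4). Both calls rested on single arrays. That of Ramp2 was lost (0.0506 to 0.0997) without any 1 array other than male meth trial 1 replicate 2 and female meth replicates 2 and 3, and that of Ankrd37 (0.0529 to 0.0928) without any other than male PBS trial 1 replicate 2, female meth replicates 2 and 3 and female PBS replicate 2.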

How the data were processed

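RNA from 15 mouse hearts, 1 per mouse, was hybridised to 1-colour Agilent arrays. The deposited scanner files give a background-subtracted processed intensity per spot, made by the authors with Agilent Feature Extraction (version 9.1 per the submitters' processing notes, 10.5.1.1 per the file headers). The authors' value table holds log2 values of the same arrays and was used as an alternative. From the intensity, log2 minus each array's 75th percentile over non-control probes was computed; outlier spots were left out and spots of a probe averaged. Of 41174 probes, the 28358 with a signal well above background on 3 or more of the 15 arrays were fitted with limma 3.58.1 in R 4.3.3, with 4 groups and the trial as given in the titles; a second fit held a group for each male trial. Values of single genes were also compared by the exact permutation test. The fit was tested on simulated data with noise independent between arrays, so that test does not cover the correlations between arrays given below. Precision is limited by the number of arrays. The samples are separate mice, by their labels.

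Genes were given in full where they passed an adjusted p of 0.05 in any contrast, or had an unadjusted p under it with no overlap in a sex. The genes and lists were chosen with earlier results of these data known. Arrays of the same replicate number shared a slide or trial, and their deviations from the group means correlated at 0.26 to 0.40 in males and 0.30 to 0.66 in females over 23808 probes. The numbers were taken as pairs only in the replicate block and the methods' paired t-test. The main fit and the exact permutation test were unpaired. Arrays of different numbers within a trial correlated as well, at 0.30 to 0.37 in males, and in females at 0.54 and 0.63 across slides 1 and 2 and 0.63 within slide 4. The alternatives varied background correction, scaling, filter, covariates, test (the methods' paired and unpaired t-tests), probe choice and each array left out. Leaving out slide 4 and the within-slide values were chosen after seeing the data. Python 3.11.15 and matplotlib 3.10.9 drew the plots.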

Additional observations from a re-analysis of the deposited data

Results flagged for a closer look

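Single arrays stood far from the rest of their group in 5 of the 135 groups of arrays looked at, where chance gives about 1 in 20. Vegfc read 0.90 in male meth trial 1 replicate 2, Kdr read 3.61 in male meth trial 1 replicate 1, and Notch4 read 0.90 in male PBS trial 1 replicate 1, as normalized log2 signals. Hif1a read 1.11 in male meth trial 2 replicate 1 and -7.10 in female meth replicate 1, where its spot was not well above background.

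The response of the Vegfa probe A_52_P249424 differed between males and females by -0.56 on the log2 scale, with an adjusted p of 0.0333 in limma's test of the difference itself. Its replicate-block and leave-one-out values are given above, and the brightest Vegfa probe gave -0.41 (adjusted p = 0.354).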

How the results depend on the processing

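No direction of a passing gene turned under any alternative, but the number of genes that passed did vary. In males, 2 of the 45 passed as reported. None passed with normexp background correction, quantile normalization, no filter on dim probes, the replicate block, each sex fitted alone, trial 1 arrays alone or either of the methods' t-tests (0 in each). With no trial term or with the trial as in the source names 1 passed, with slide as a block 4 passed, and leaving out 1 array gave 0 to 2. Of all probes, 314 passed in males as reported, 53 with normexp and 276 with quantile normalization. With the replicate block 157 of all probes passed, and with slide as a block 525. In females 1 passed (Pgf) with the median shift and with probes well above background on all arrays, and 0 in each leave-one-out fit. For the mean of both sexes, 3 passed as reported. The count was 0 with normexp, no filter, the replicate block or trial 1 arrays alone, and 1 with quantile normalization, no trial term or without slide 4. The 1 without slide 4 was none of the 3 reported, whose adjusted p-values there were 0.079 (Vcam1), 0.0534 (Figf) and 0.0841 (Cldn5). With slide as a block 5 passed, where 1253 of all probes passed against 751 as reported. Leaving out 1 array gave 0 to 3. Between the PBS sexes, 2 passed with slide as a block, 1 without slide 4, 1 with the mean over a gene's probes, and 0 to 1 leaving out 1 array. The median shift moved the median difference between the sexes in the meth response to -0.11 and that between the PBS sexes to -0.05. Hif1a in females, -1.92 as reported, was -3.94 without slide 4 and ran from -2.66 without female meth replicate 3 to 0.086 without female meth replicate 1 among the single arrays left out. The differences between the sexes and between the trials gave 0 under every alternative run. The cause of these changes was not tested, except that some alternatives use fewer arrays.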
